A study of Mus musculus with 12 samples.

Results

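The hairpins described here are 41 microRNA precursors of the imprinted Dlk1-Dio3 locus on mouse chromosome 12, out of 1050 miRBase hairpins that had a read in any of the 12 small RNA libraries. They were chosen by name, and all 41 were found in the files, from mmu-mir-770 in Meg3 to mmu-mir-410 in Mirg, with mmu-mir-127, mmu-mir-411 and mmu-mir-434 the most abundant. The prefix mmu- is left out below. The libraries came from mature epididymal sperm of C57BL6/J males and from TM4 cells, a mouse Sertoli cell line. Males received a control diet (CD, 16% of energy from fat per the labels) or a high-fat diet (HFD, 69% per the labels) for 7 weeks from 4 weeks of age, and each of the 3 CD and 3 HFD libraries pooled sperm of 3 mice. The labels' fat content and starting age are given here, but the study's methods give a lower fat content for the HFD and one of its legends a later start. TM4 cells were left untreated (Ctrl), treated with 10 µM Compound C (CC), an AMPK inhibitor, for 12 h, or made to overexpress angiogenin (Ang OE) from a plasmid, with 2 libraries in each group. All TM4 libraries are of the same cell line, and no label says whether its replicates were separate cultures, so the p-values below measure the spread between these libraries.

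The Dlk1-Dio3 locus carries protein-coding genes that are expressed from the paternal chromosome (Dlk1, Rtl1, Dio3) and long non-coding RNAs that are expressed from the maternal chromosome (Meg3, Rian, Mirg). The microRNAs are processed from the maternal transcripts. A first group lies antisense to Rtl1, a retrotransposon-derived gene whose mRNA these microRNAs can cleave, and a second, larger group is the mir-379/mir-410 cluster, best known from brain and placenta. In the GRCm38.p6 annotation (mm10) all 41 hairpins lay on the plus strand of chromosome 12 and spanned 180104 bases. mir-770 lay inside Meg3 and mir-370 inside Rian. The 5 antisense members mir-431, mir-433, mir-127, mir-434 and mir-136 took up 4942 bases within the span of Rtl1, which also held mir-337, mir-540 and mir-665. The other 31 members formed the mir-379/mir-410 cluster of 34736 bases, whose last 8 hairpins lay inside Mirg.

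The mature arms of the members that held most reads, or that are named in a comparison, are shown first, as RefSeq lists them for GRCm38.p6, with bases 2 to 8 (the seed, which pairs with targets) in capitals. The files count reads per hairpin, so no value below belongs to a single arm. mir-127 (chr12:109592846-109592915), mir-434 (chr12:109594506-109594599) and mir-136 (chr12:109595327-109595388) stood for the Rtl1 antisense group.
miR-127-5p: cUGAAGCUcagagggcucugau
miR-127-3p: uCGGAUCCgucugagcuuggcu
miR-434-5p: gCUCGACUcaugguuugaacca
miR-434-3p: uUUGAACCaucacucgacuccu
miR-136-5p: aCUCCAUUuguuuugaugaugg
miR-136-3p: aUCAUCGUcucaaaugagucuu

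mir-411 (chr12:109710175-109710256), mir-380 (chr12:109711803-109711863), mir-541 (chr12:109742409-109742498) and mir-410 (chr12:109743715-109743795) are the members of the mir-379/mir-410 cluster on which the comparisons turned.
miR-411-5p: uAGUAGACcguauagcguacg
miR-411-3p: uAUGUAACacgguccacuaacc
miR-380-5p: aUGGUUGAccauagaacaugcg
miR-380-3p: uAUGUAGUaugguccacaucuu
miR-541-5p: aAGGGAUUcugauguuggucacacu
miR-541-3p: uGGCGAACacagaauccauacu
miR-410-5p: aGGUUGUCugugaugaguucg
miR-410-3p: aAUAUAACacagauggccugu

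The 78 mature arms listed for the 41 members carried 75 different seeds. Only 3 seeds were shared by more than 1 member, each by 2 members: miR-379-3p with miR-411-3p, miR-494-5p with miR-410-5p, and miR-376b-5p with miR-376c-5p. The last pair, and miR-381-3p with miR-300-3p, are shown because reads of such near-identical arms can be divided between hairpins in the counting.
miR-376b-5p: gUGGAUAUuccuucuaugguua
miR-376c-5p: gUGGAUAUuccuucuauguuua
miR-381-3p: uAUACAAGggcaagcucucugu
miR-300-3p: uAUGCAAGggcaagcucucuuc
Counted from the 5′ end, miR-376b-5p and miR-376c-5p differed by G19U, and miR-381-3p and miR-300-3p by A4G, G21U and U22C, with the base of the first-named arm given first. Values that were not whole numbers, the mark of divided reads (tolerance 0.001), occurred in 5 members: mir-299a, mir-376b, mir-376c, mir-300 and mir-381. The split between the hairpins of such a pair is uncertain.

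Depth was 11412945 to 14822686 miRBase reads per sperm library and 27651384 to 35704399 per TM4 library, and levels are given as CPM, read counts scaled to a common total of miRBase reads. No member had a read without a genome match. Over all hairpins the spread between replicates was above sampling noise in all groups: chi-square values, divided by their degrees of freedom, were 226 or more. HFD 1 stood apart from the other HFD libraries, with values of 1138 and 1461 against 285 between HFD 2 and HFD 3 and 257 to 312 among the CD libraries. Over the members alone the same values were 145 and 121 for HFD 1, against 16.6 for HFD 2 and HFD 3 and 2.53 to 12.0 among the CD libraries. In TM4 cells, over the 6 to 8 members with enough reads, they were 1.09 for Ang OE, 1.43 for CC and 3.34 for Ctrl, closer to sampling noise. Such values grow with read counts, and the members had far fewer reads in TM4 cells. They therefore do not compare the spread of the 2 systems. Because HFD 1 stood apart, the results of the diet comparison are also given without it. The marker of gonadal somatic cells fixed for the TM4 label, mir-202, was near 0 in TM4 cells, between 0 and 0.178 CPM in the 6 libraries, and was 4.86 to 59.8 CPM in sperm.

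The cluster was measured well in sperm and was low in TM4 cells. The 41 members summed to 4039, 3856 and 3008 CPM in the CD libraries and to 4137, 3558 and 3799.99 CPM in the HFD libraries. This was 0.301% to 0.414% of all miRBase reads, or 40069.5 to 57698.5 reads per library. In TM4 cells the sums were 18.1 and 17.3 CPM in Ctrl, 11.6 and 13.1 CPM in CC, and 13.7 and 13.3 CPM in Ang OE, from 353 to 619 reads per library. Every sperm library thus lay above every TM4 library by a wide margin.

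**Figure D1:**
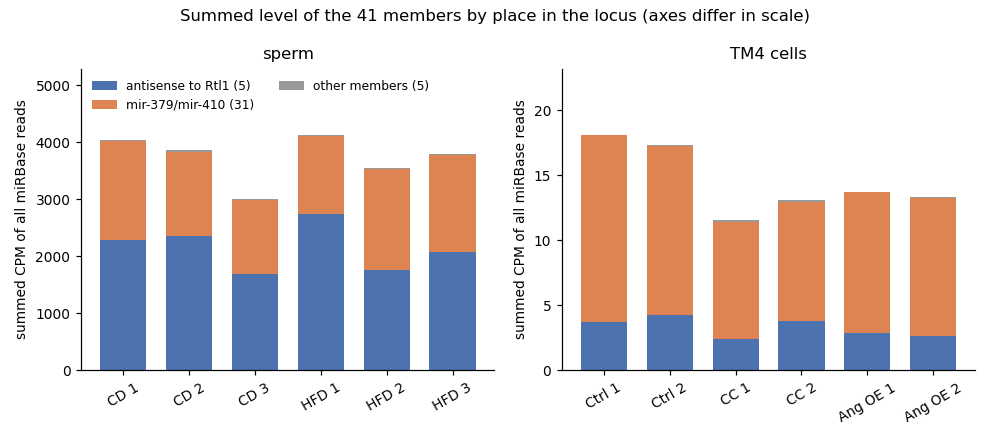
Summed CPM of the 41 members in each library (bars from 0), split into the 5 Rtl1 antisense members, the 31 members of the mir-379/mir-410 cluster and the 5 others, for sperm on the left and TM4 cells on the right with an axis of its own. Sperm libraries reached 3008 to 4137 CPM and TM4 libraries 11.6 to 18.1 CPM, and the antisense share was smaller in TM4 cells.

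In sperm all 41 members had reads, 38 of them in every library, but few members carried most of the signal. mir-127 alone held 40.5% of the cluster's CPM, the first 3 members 74.6% and the first 5 members 88.3%. There were 6 members with a mean over 100 CPM, another 6 between 10 and 100 CPM, 19 between 1 and 10 CPM, and 10 at or under 1 CPM.

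mir-127, antisense to Rtl1, was the most abundant member, with 1609.9, 1695 and 1179 CPM in the CD libraries and 2061, 1141 and 1389 CPM in the HFD libraries. Its highest and lowest values were both in HFD libraries. It ranked 45 among all hairpins by mean level in sperm. mir-434, which lies next to it in the locus, had 536, 553 and 411.04 CPM in CD and 598, 462 and 509 CPM in HFD. mir-136, the last of the antisense group, had 106, 89.0 and 85.9 CPM in CD and 63.2, 133 and 149 CPM in HFD, so that HFD 1 was the lowest and HFD 3 the highest library. The 2 remaining antisense members were far lower, with means of 17.6 ± 2.45 CPM for mir-431 and 4.77 ± 1.13 CPM for mir-433 (SD, n = 6 libraries).

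mir-411 led the mir-379/mir-410 cluster in sperm, with 822, 678 and 614 CPM in CD and 581, 900.4 and 956 CPM in HFD. HFD 1 was again the lowest library, opposite to its rank for mir-127. mir-541, in Mirg, had 484, 384 and 356 CPM in CD and 394, 445 and 338 CPM in HFD. mir-410, the last hairpin of the locus, had 117, 119 and 88.9 CPM in CD and 121, 113 and 119 CPM in HFD, the narrowest spread of the first 10 members (CV 10.7%). For both hairpins the ranges of the diets overlapped.

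The other members among the first 10 had means over the 6 sperm libraries of 73.4 ± 18.4 CPM for mir-381, 63.6 ± 8.35 CPM for mir-409, 43.9 ± 9.19 CPM for mir-379 and 27.3 ± 5.80 CPM for mir-300 (SD). In the order of levels, every library of mir-127 lay above every library of mir-411. The ranges of mir-411 and mir-434 overlapped through HFD 1 (581 and 598 CPM), and those of mir-434 and mir-541, and of mir-410 and mir-136, overlapped as well. At the other end, mir-665 (0.144 ± 0.119 CPM) and mir-770 (0.0627 ± 0.0750 CPM) were at the level of a few reads.

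**Figure D2:**
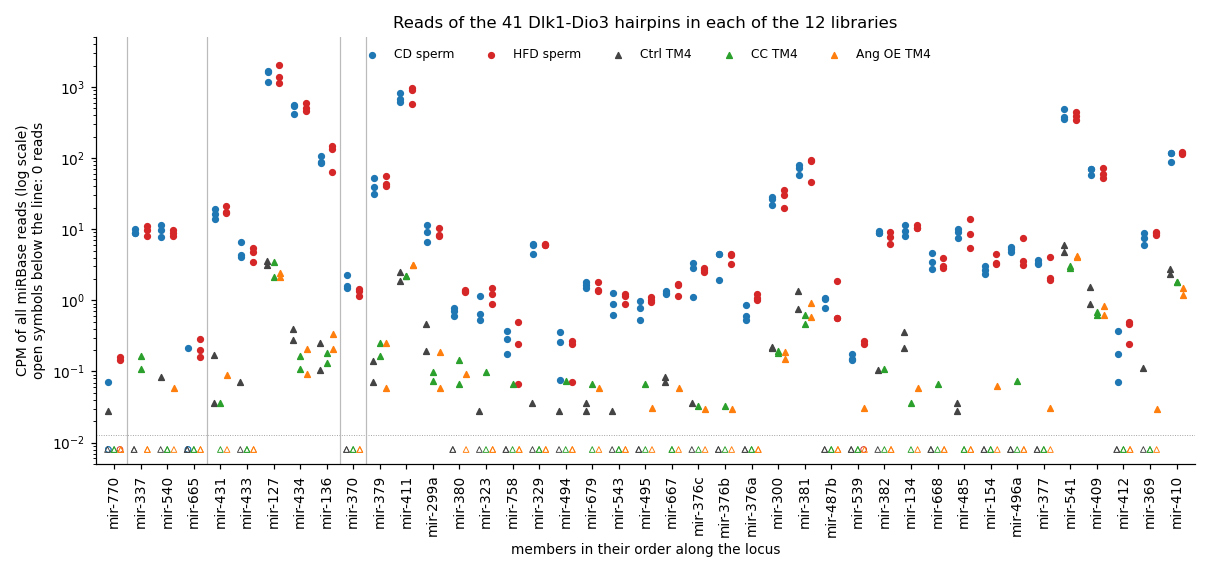
CPM of every member in each of the 12 libraries (log axis), with members ordered along the locus and vertical lines between the groups by place (mir-770, mir-337 to mir-665, the Rtl1 antisense group, mir-370 and the mir-379/mir-410 cluster). Circles are sperm and triangles TM4 cells, open symbols at the bottom stand for 0 reads, and mir-127, mir-411, mir-434 and mir-541 stand at 338 CPM or more in all sperm libraries.

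Ratios between members of the locus differed from library to library. For each read of mir-127 there were 0.511, 0.39997 and 0.521 reads of mir-411 in CD and 0.282, 0.789 and 0.688 in HFD. For mir-136 the same ratio was 0.0661, 0.0525 and 0.0729 in CD and 0.0307, 0.117 and 0.107 in HFD. HFD 1 was the lowest and HFD 2 the highest library in both. The ratio of mir-434 to mir-127, which are neighbours, varied less, from 0.290 in HFD 1 to 0.405 in HFD 2. The share of the cluster held by the 5 antisense members ran accordingly from 49.4% in HFD 2 to 66.5% in HFD 1. The counting error of these ratios was not computed. For the level of single members, the CV of mir-127 over the 6 libraries was 23.1%, where counting alone gives 0.704%, and for mir-136 it was 30.5%, where counting gives 2.68%. Among members with few reads this differed: the CV of mir-329 was 11.1% with 11.4% from counting, and that of mir-496a was 32.0% with 12.3% from counting.

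The diet comparison asked whether a high-fat diet changed these microRNAs in sperm, and no member was called. Of 35 members with at least 10 reads in at least 3 of the 6 libraries, 0 passed an adjusted p of 0.05 (edgeR quasi-likelihood test, Benjamini-Hochberg adjustment), as did 0% of the 451 hairpins tested. By DESeq2 8 of the 451 hairpins and 0 members passed. At an unadjusted p under 0.05 there was 1 member, against 6.87% of all hairpins tested (31 hairpins). The median log2 fold change (HFD over CD) was 0.01 over the 35 members and -0.01 over all hairpins, with 18 members above 0 and 17 below. This split followed the scaling: with all miRBase reads as library size it was 24 above and 11 below, with medians of 0.12 and 0.10, and with clean non-rRNA reads it was 26 above and 9 below, with medians of 0.20 and 0.19. Without HFD 1 the count was again 0 of 35, the medians were 0.10 over the members and 0.02 over all hairpins, and 21 members lay above 0 and 14 below. At an unadjusted p under 0.05 there were then 4 members (mir-136, mir-377, mir-380 and mir-496a), against 17.9% of the 446 hairpins tested.

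The member with an unadjusted p under 0.05 was mir-380, a hairpin of the mir-379/mir-410 cluster with few reads. It had 0.787, 0.701 and 0.6005 CPM in CD (11, 8 and 8 reads) and 1.36, 1.29 and 1.42 CPM in HFD (19, 16 and 21 reads). All 3 HFD libraries lay above all 3 CD libraries. The log2 fold change was 0.84 with a standard error of 0.30, and the edgeR adjusted p was 0.457, so it failed the adjustment. Without HFD 1 the values were 0.93 and an adjusted p of 0.193. In another 3 members, named here after their values were seen, the libraries did not overlap between the diets: mir-154 and mir-376a were higher and mir-370 lower in HFD. That made 4 of 35 members, where 6.21% of all hairpins tested did not overlap. Of these, mir-380 and mir-376a (12, 6 and 8 reads in CD, 14, 15 and 16 in HFD) passed the filter only through the HFD libraries, where they were higher, so nothing is read from this count.

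The standard errors ran from 0.18 for mir-434 to 0.50 for mir-487b and did not follow abundance alone: mir-329, with a mean of 77.3 reads, had 0.22, and mir-136, with 1397 reads, had 0.33. For mir-127 the 95% interval of the log2 fold change was -0.60 to 0.43, for mir-434 -0.45 to 0.36, for mir-410 -0.41 to 0.43, for mir-541 -0.68 to 0.35 and for mir-411 -0.47 to 0.66. A change of 2-fold lay outside the intervals of these 5 members. The interval was wider for mir-136 (-0.55 to 0.92), and for mir-487b (-1.19 to 1.07) it held a 2-fold change in either direction. Without HFD 1 the intervals were -0.70 to 0.19 for mir-127, -0.47 to 0.36 for mir-434, -0.36 to 0.53 for mir-410, -0.66 to 0.50 for mir-541 and -0.11 to 0.85 for mir-411, which again did not reach a 2-fold change. That of mir-136 was then 0.08 to 1.04, with an edgeR adjusted p of 0.23. In these sperm pools, fewer cells of a type and less RNA per cell cannot be told apart. The markers of other cells were present: the 5 epithelial hairpins (mir-200 family) summed to 9281 to 10573 CPM in CD and 8946 to 14327 CPM in HFD. The 3 white blood cell hairpins summed to 580.3 to 676 CPM in CD and 780.1 to 1422 CPM in HFD, and these ranges did not overlap. Most of this was mir-142a, with 484 to 575 CPM in CD and 688 to 1179 CPM in HFD. The other listed hairpins overlapped between the diets: mir-223 had 28.2 to 32.6 CPM and 29.7 to 40.6 CPM, and mir-150 67.9 to 93.5 CPM and 62.1 to 202 CPM. The 4 red blood cell hairpins reached 26237 to 34490 CPM in CD and 25239 to 50595 CPM in HFD, and the 13 male germ cell hairpins 3821 to 11192 CPM and 3850.3 to 5643 CPM. The 6 smooth muscle hairpins summed to 50989, 42736 and 33628 CPM in CD 1 to CD 3 and to 30652, 52041 and 56169 CPM in HFD 1 to HFD 3. This was nearly all mir-143, with means of 41998 CPM in CD and 45883 CPM in HFD. The sum and mir-143 had the order of the 6 libraries that mir-411 and mir-136 had, with HFD 1 lowest and HFD 3 highest. None of the other listed hairpins of smooth muscle had this order. For mir-145a the values were 436, 442 and 372 CPM in CD and 401, 321 and 365 CPM in HFD. The 4 mesenchymal hairpins summed to 1635 to 2170.4 CPM in CD and 1961 to 2370.4 CPM in HFD, and mir-202 had 6.94 to 59.8 CPM and 4.86 to 11.3 CPM. No listed marker of these groups was at 0 in sperm, and their part in the members' values was not tested.

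**Figure D3:**
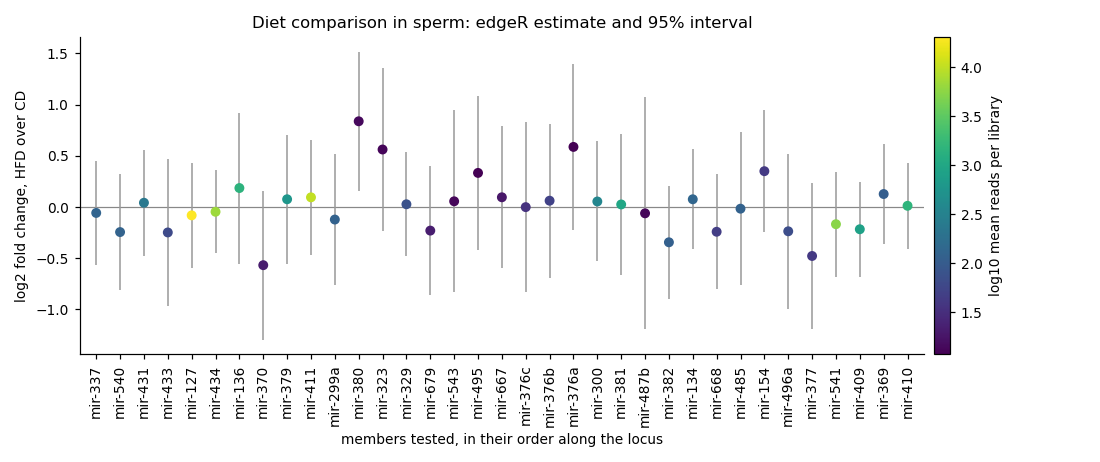
Log2 fold change, HFD over CD, of the 35 members tested in sperm, in the order of the locus, with the 95% interval of the edgeR estimate and coloured by mean reads per library. The intervals of all members but mir-380 include 0, and the estimates run from -0.57 for mir-370 to 0.84 for mir-380.

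In TM4 cells most members had few reads. Of the 41 members, 36 had a read in at least 1 of the 6 libraries, 11 had reads in all of them, and 5 (mir-376a, mir-487b, mir-412, mir-665 and mir-370) had 0 reads, which allows a level of up to 0.0160 CPM over the 6 libraries. No member reached 10 CPM, and 4 had a mean over 1 CPM. The order of members differed from sperm: mir-541 came first with 4.16 ± 1.17 CPM (SD, n = 6), followed, in the mean over the 3 groups, by mir-127 with 2.78 ± 0.660 CPM, mir-411 with 2.52 ± 0.526 CPM and mir-410 with 1.90 ± 0.587 CPM. The order was not the same in each group: mir-410 (2.57 CPM) lay above mir-411 (2.20 CPM) in the Ctrl means, and mir-411 (3.15 CPM) above mir-127 (2.26 CPM) in the Ang OE means. The next by mean over the 6 libraries were mir-409, mir-381, mir-434, mir-136, mir-300 and mir-299a, from 0.864 down to 0.179 CPM. The first 3 members held 65.1% of the cluster's CPM.

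The Rtl1 antisense members made up 19.6% to 28.7% of the cluster in TM4 cells and 49.4% to 66.5% in sperm, and the mir-379/mir-410 cluster 70.4% to 80.0% and 33.0% to 50.0%. Neither pair of ranges overlapped. Some ratios between single hairpins did not overlap either. There were 2.56 to 5.24 reads of mir-127 for each read of mir-541 in the sperm libraries and 0.509 to 1.13 in the TM4 libraries. For mir-434 per mir-127 the ratio was 0.290 to 0.405 in sperm and 0.0316 to 0.126 in TM4 cells. For mir-411 per mir-410 it was 4.81 to 8.01 in sperm and 0.803 to 2.71 in TM4 cells. Other ratios overlapped between sperm and TM4 cells. They were 0.282 to 0.789 and 0.609 to 1.48 for mir-411 per mir-127, and 0.0307 to 0.117 and 0.0345 to 0.141 for mir-136 per mir-127. For mir-409 per mir-410 they were 0.438 to 0.647 and 0.32 to 0.711, and for mir-381 per mir-300 2.32 to 2.99 and 2.33 to 6.33.

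Compound C was compared with Ctrl to ask how AMPK inhibition acts on small RNAs of these cells. Of 7 members with at least 10 reads in at least 2 of the 6 TM4 libraries, 1 fell (mir-541) and none rose, and 1.88% of the 533 hairpins tested fell. mir-541 had 6.07 and 4.73 CPM in Ctrl (171 and 169 reads) and 2.89 and 3.04 CPM in CC (88 and 84 reads). Both CC libraries lay below both Ctrl libraries. The log2 fold change was -0.85 with a standard error of 0.19 and an edgeR adjusted p of 0.0111. The call was lost without Ctrl 1 (log2 fold change -0.69, adjusted p 0.129), without CC 1 (-0.85, adjusted p 0.113) and without CC 2 (-0.88, adjusted p 0.134), while the fold stayed near its value without either CC library. In these fits the lone library is assumed to vary like the other groups, and without CC 1 or without CC 2 no hairpin at all was called.

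The other 6 members tested did not pass. mir-411 had 1.88 and 2.52 CPM in Ctrl and 2.23 and 2.21 CPM in CC, with a log2 fold change near 0 (95% interval -0.48 to 0.49). mir-127 had 3.09 and 3.56 CPM in Ctrl and 2.10 and 3.44 CPM in CC, and mir-410 had 2.34 and 2.80 CPM in Ctrl and 1.81 CPM in both CC libraries. The median log2 fold change of the 7 members was -0.85, against -0.03 over all hairpins tested. Of the 7 members, 5 had both CC libraries below both Ctrl libraries, where 24% of all hairpins tested did. One of these, mir-434 (11 and 10 reads in Ctrl, 5 and 3 in CC), passed the filter only through the Ctrl libraries. It was higher there, so nothing is read from this count or median. The estimates of mir-381, mir-409 and mir-434 rested on 3 to 43 reads per library. Summed over the 41 members the level was 17.7 ± 0.573 CPM in Ctrl and 12.3 ± 1.06 CPM in CC (SD, n = 2 each), a log2 ratio of -0.52, for which no test was made. In the same libraries the 4 red blood cell hairpins summed to 2737 to 2857 CPM in Ctrl and 1879 to 1956 CPM in CC. Nearly all of this was mir-486a and mir-486b, while the erythroid mir-451a had means of 0.352 CPM in Ctrl and 0.621 CPM in CC and mir-144 of 0.0280 and 0.0821 CPM. The 3 white blood cell hairpins summed to 3.81 to 4.30 CPM in Ctrl and 3.00 to 3.09 CPM in CC, and the 4 mesenchymal hairpins to 18343 to 19343 CPM and 15607 to 16931 CPM. Their part in the members' values was not tested.

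Angiogenin is a ribonuclease known for cleaving tRNA, and its overexpression was compared with the same Ctrl libraries, which the CC and Ang OE comparisons therefore share. No label names cells given an empty plasmid, so effects of the plasmid and of angiogenin cannot be told apart. Of the 7 members tested, mir-411 rose and mir-410 fell, where 24.2% of the 533 hairpins tested rose and 14.1% fell. mir-411 had 1.88 and 2.52 CPM in Ctrl (53 and 90 reads) and 3.19 and 3.11 CPM in Ang OE (103 and 105 reads). Both Ang OE libraries lay above both Ctrl libraries. Its log2 fold change was 0.78 with a standard error of 0.22 and an edgeR adjusted p of 0.00963. mir-410 had 2.34 and 2.80 CPM in Ctrl (66 and 100 reads) and 1.18 and 1.48 CPM in Ang OE (38 and 50 reads), with both Ang OE libraries below both Ctrl libraries. Its log2 fold change was -0.68 with a standard error of 0.26 and an edgeR adjusted p of 0.0475.

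Both calls depended on the setting and on single libraries. For mir-411 the log2 fold change was 0.50 with all miRBase reads as library size (adjusted p 0.0767), 0.57 without Ctrl 1 (adjusted p 0.135), 0.71 without Ang OE 1 (adjusted p 0.0708) and 0.74 without Ang OE 2 (adjusted p 0.0595). For mir-410 it was -0.75 by DESeq2 (adjusted p 0.0791) and -0.65 with no filter (adjusted p 0.0605). It was -0.82 without Ctrl 1 (adjusted p 0.0718), -0.51 without Ctrl 2 (adjusted p 0.366), -0.57 without Ang OE 1 (adjusted p 0.197) and -0.92 without Ang OE 2 (adjusted p 0.0522), so that in several of these fits the fold was as large as before and the adjusted p alone crossed the threshold. The direction of both was the same in all these fits. The ratio of mir-411 to mir-410 reads, which no library size enters, was 0.803 and 0.900 in Ctrl, 1.24 and 1.22 in CC, and 2.71 and 2.10 in Ang OE. As these are the member called higher and the member called lower, the ratio is no separate support for the calls.

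The other 5 members tested had 0 calls. mir-541 had 4.21 and 4.00 CPM in Ang OE, below its 6.07 and 4.73 CPM in Ctrl, with a log2 fold change of -0.11 (95% interval -0.49 to 0.26). mir-127 had 2.41 and 2.11 CPM in Ang OE. mir-434 (11 and 10 reads in Ctrl, 3 and 7 in Ang OE) passed the filter only through the Ctrl libraries, where it was higher. It is part of the next count, from which nothing is read. On the CPM scale 5 of the 7 members had both Ang OE libraries below both Ctrl libraries, where 45.2% of all hairpins tested did. This scale matters here: of the hairpins called, 63.2% were higher in Ang OE with TMM scaling, 36.8% with all miRBase reads as library size and 48.8% with clean non-rRNA reads, and the median over all hairpins was 0.06, -0.21 and -0.08. The summed level was 13.5 ± 0.2497 CPM in Ang OE (SD, n = 2), a log2 ratio of -0.39 to Ctrl, with no test. In Ang OE the 6 smooth muscle hairpins summed to 94556 to 129039 CPM, against 49715 to 55567 CPM in Ctrl. This was nearly all mir-143, while mir-133a-1 and mir-133a-2 each had means of 0.0909 CPM in Ang OE and 0.307 CPM in Ctrl. The 13 germ cell hairpins, 6 of them without a read in Ctrl, summed to 1932 to 2045 CPM against 1017 to 1050.3 CPM, of which mir-34c made up a mean of 1895 CPM in Ang OE and 959.7 CPM in Ctrl. The members of that list other than mir-34b, mir-34c and mir-449a had means of at most 0.498 CPM in either group. The sums of 3 other lists were lower in Ang OE, with no overlap. They were 1762 to 1784 CPM against 2737 to 2857 CPM for red blood cells, 2.23 to 2.82 CPM against 3.81 to 4.30 CPM for white blood cells, and 16497 to 17236 CPM against 18343 to 19343 CPM for mesenchymal cells, although mir-199b of the last list had 3949 and 3697 CPM in Ang OE against 3441 and 3542 CPM in Ctrl. Their part in the members' values was not tested.

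**Figure D4:**
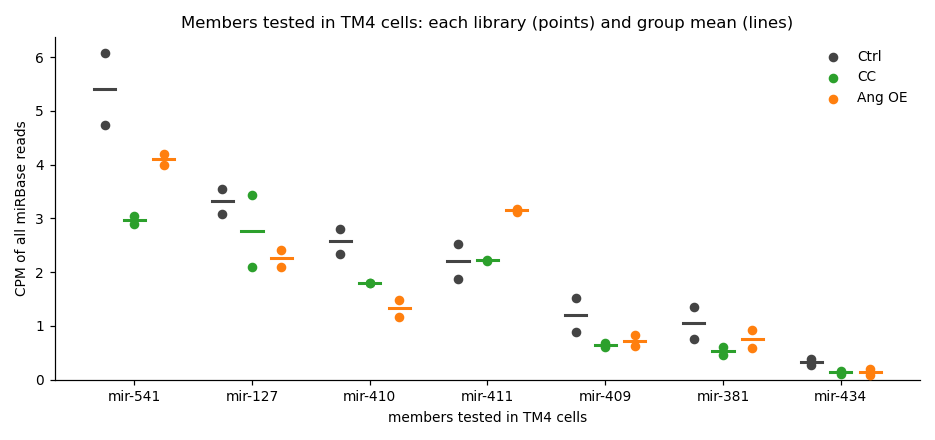
CPM of the 7 members tested in TM4 cells, with each library as a point and each group mean as a line (Ctrl, CC and Ang OE, 2 libraries each; linear axis from 0). mir-541 is lower in both CC libraries, and mir-411 higher and mir-410 lower in both Ang OE libraries, than in both Ctrl libraries.

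Sperm and TM4 cells were set side by side to see where the members are abundant. Tissue, culture and pooling cannot be told apart in this comparison. In 37 of the 41 members every sperm library lay above every TM4 library, which held for 21.4% of all 1050 hairpins. The 4 exceptions, mir-494, mir-539, mir-665 and mir-770, had a mean of at most 0.213 CPM in sperm. Between CD sperm and Ctrl TM4 cells all 32 members that passed the filter were called higher in sperm, where 40.7% of the 590 hairpins tested were. Of these 32 members, 23 passed the filter through the CD libraries alone, since no Ctrl library had 10 reads of them, and 7 had at least 10 reads in both Ctrl libraries.

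Folds between the systems are given as ratios of mean CPM. Among the 26 members with a read in Ctrl, mir-434 had the largest, 1492-fold, from 500.3 ± 77.8 CPM in CD and 0.335 ± 0.0782 CPM in Ctrl (21 reads in both libraries together). The ratio was 523-fold for mir-136 (12 reads in Ctrl), 449.7-fold for mir-127 (214 reads), 389-fold for mir-379 (7 reads) and 320.1-fold for mir-411 (143 reads). For mir-136 and mir-379 the Ctrl libraries differed, with 0.107 and 0.252 CPM (3 and 9 reads) for mir-136 and 0.0710 and 0.140 CPM (2 and 5 reads) for mir-379, so their place in this order is uncertain. Without Ctrl 1 the edgeR log2 fold change moved from 10.27 to 8.95 for mir-136 and from 9.81 to 8.57 for mir-379. Part of this move was shared by other members: mir-434 went from 11.87 to 11.20 without Ctrl 1 and to 10.77 without Ctrl 2, and mir-337 from 11.55 to 10.67 and 10.51. At the lower end of the well-counted members it was 75.5-fold for mir-541 (340 reads), 54.4-fold for mir-409 (75 reads) and 42.2-fold for mir-410 (166 reads). These members were thus more abundant in sperm by very unequal factors.

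Several members had 0 reads in both Ctrl libraries, so their folds are lower bounds, against a floor of 3 counts over the 2 libraries, and could exceed that of mir-434. mir-337, within the span of Rtl1, was at least 198-fold higher in CD sperm, mir-496a at least 111-fold, mir-376b at least 77.03-fold, mir-668 at least 76.9-fold, mir-377 at least 73.0-fold and mir-154 at least 57.1-fold. mir-329, with 1 read in Ctrl, had a ratio of pooled reads of 353 with an exact 95% interval of 62.7 to 14008, which covers counting error only. The size of the edgeR log2 fold changes depended on the scaling. With TMM the median was -0.13 over all hairpins tested, and with all miRBase reads as library size it was -1.47. No median of fitted values is given for the 32 members, since 9 of them had 0 reads in Ctrl. Over all 41 members the median ratio of mean CPM was 66.7, with members at 0 in Ctrl set at their lower bound. Of all calls 52.7% were higher in sperm with TMM, 36.2% with miRBase reads and 34.6% when libraries were scaled by their clean non-rRNA reads. The 32 members were called higher with each. As 23 of them passed the filter through the CD libraries alone, nothing is read from this agreement.

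**Figure D5:**
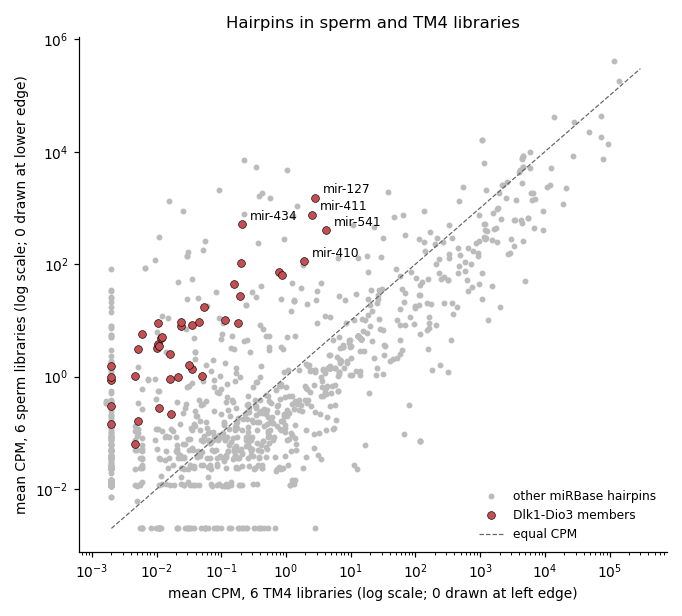
Mean CPM of the 6 sperm libraries against mean CPM of the 6 TM4 libraries for 1050 miRBase hairpins (log axes, 0 drawn at the edge), with the 41 members in red and the line of equal CPM. All members lie above the line, and mir-127 is the highest of them in sperm.

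Markers of other cells differed between the systems as well. The 5 epithelial hairpins summed to 8946 to 14327 CPM in sperm and 1.278 to 2.38 CPM in TM4 cells, and the 3 white blood cell hairpins to 580.3 to 1422 CPM and 2.23 to 4.30 CPM. The 4 red blood cell hairpins summed to 25239 to 50595 CPM in sperm and 1762 to 2857 CPM in TM4 cells, with mir-451a at a mean of 1557 CPM in CD and 0.352 CPM in Ctrl. The 13 germ cell hairpins summed to 3821 to 11192 CPM in sperm and 935 to 2045 CPM in TM4 cells, 5 of them without a read in any TM4 library. The sums of the 6 smooth muscle hairpins, nearly all mir-143, overlapped between the systems, with 30652 to 56169 CPM and 49715 to 129039 CPM. The other listed hairpins did not overlap and went in both directions. mir-145a had 321 to 442 CPM in sperm and 1171 to 1444 CPM in TM4 cells. mir-133a-1 had 15.7 to 23.4 CPM and 0.0890 to 0.416 CPM, and mir-133a-2, mir-1a-1 and mir-1a-2 were higher in sperm too. The 4 mesenchymal hairpins went the other way, with 1635 to 2370.4 CPM in sperm and 15607 to 19343 CPM in TM4 cells. Their part in the members' levels was not tested. The repeat families of hairpins in the imprinted Sfmbt2 gene, 81 hairpins in the files, did not share the pattern of the Dlk1-Dio3 members. They summed to 210.3 to 349 CPM in sperm and 569.5 to 752 CPM in TM4 cells, so that every sperm library lay below every TM4 library. Another 18 hairpins of the Dlk1-Dio3 locus, not among the members, summed to 16.6 to 22.7 CPM in sperm (13 with a read) and 0.0890 to 0.462 CPM in TM4 cells (5 with a read).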

How the data were processed

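Small RNA libraries were made with a TruSeq kit. According to the study's methods and notes, the authors used FastQC 0.12.0 and Trimmomatic 0.40, kept reads of set lengths, and annotated them with SPORTS1.1 (1 mismatch allowed). The build named is mm10. The deposited values are estimated counts per hairpin: the authors' pipeline divided reads that matched several hairpins, with no normalization. Genome-matched and unmatched reads were added, and absent hairpins were set to 0. CPM is relative to all miRBase reads of a library.

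Counts were rounded and tested with edgeR 4.0.16 (R 4.3.3), quasi-likelihood, TMM scaling over hairpins, at least 10 reads in at least 3 of 6 (sperm), 2 of 6 (TM4) or 2 of 5 (CD and Ctrl) libraries, adjusted over all hairpins tested, and called at an adjusted p under 0.05. The TM4 groups shared 1 model. Tables were handled with pandas 2.3.3.

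Members named were the 10 most abundant in each system, called members (at most 12 per comparison, by size, with a mean of at least 10 reads), where fewer than 3 were called those with an unadjusted p under 0.05, and by name those at 0 in a system. Other names were chosen after their values were seen. The members and lists were chosen with earlier results of these data known. Alternatives were DESeq2 1.42.0, other library sizes, no filter or at least 100 reads, genome-matched reads, leaving out each library, a replicate block, a model of the 2 compared groups and ComBat-seq (sva 3.50.0) with the replicate number as batch, since the authors' batches are not given in the sources used here. Intervals and floors cover counting error only, except the 95% intervals of edgeR fold changes. Depth is 11412945 to 35704399 miRBase reads per library, and 1 read is worth 0.0280 to 0.0876 CPM.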

Additional observations from a re-analysis of the deposited data

How the results depend on the processing

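In the diet comparison 0 members were called in every alternative run. In the CC comparison 1 member was called in every alternative but the leave-one-out fits (0 to 1). In the Ang OE comparison 2 members were called, but 1 with DESeq2, with all miRBase reads as library size, with no filter on low counts and with at least 100 reads (2 members tested), and 0 to 1 when a library was left out. In the CD and Ctrl comparison 32 members were called, 18 with at least 100 reads, where 18 were tested, 39 of 41 tested with no filter on low counts, and 29 to 32 without a library. The log2 ratio of the summed level, HFD over CD, was 0.076, ranged from -0.043 to 0.16 when a library was left out, and reversed to -0.043 without CD 3. The ratio CC over Ctrl was -0.52 and -0.40 without mir-541. Ang OE over Ctrl was -0.39, and -0.26 with clean reads without rRNA as denominator. CD over Ctrl was 7.68, and 7.45 with clean reads as denominator, 7.21 without mir-127 and 8.03 without mir-541. The cause was not tested. Replicate numbers did not pair the libraries: deviations of same-numbered libraries correlated at -0.33 to 0.06 in sperm and -0.04 to 0.04 in TM4 cells. With the replicate block 0, 1 and 2 members were called for HFD, CC and Ang OE, and no other call of a member changed. Over all hairpins 22 were called for CC, 35 with the replicate block and 39 with ComBat-seq. No block was fitted for CD and Ctrl, whose numbers belong to pools of mice and to TM4 libraries. In TM4 cells members with fewer than 10 reads limit what can be compared.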

Other observations

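The other imprinted hairpins outside the locus were not alike between the systems. mir-298 and mir-296, neighbours in the imprinted Gnas region, had means of 22.5 and 9.24 CPM in CD sperm and 2226 and 79.8 CPM in Ctrl TM4 cells. The CD mean of mir-298 rested on CD 2 (40.9 CPM, against 11.3 and 15.2 CPM in CD 1 and CD 3). Both hairpins were opposite in direction to the Dlk1-Dio3 members. mir-335, in the imprinted gene Mest, had 19.2 CPM in CD sperm and 0.0888 CPM in Ctrl. mir-675, in the maternally expressed H19, had 0 reads in all 12 libraries, and mir-483, in Igf2, had 0.415 CPM in CD sperm and 0 reads in Ctrl. These are values, with no test made on them.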
